A study of Mus musculus with 6 samples.

Results

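Solute carriers are membrane proteins that move nutrients, ions, metals and metabolic intermediates across the plasma membrane and the membranes of organelles. The 176 genes described here are those whose mouse symbol has the solute carrier form (Slc, a family number, a letter and a member number) and whose mean level over all 6 libraries was at least 2 CPM (the count relative to the library's unscaled total). The count table holds 377 genes of that form among 51912 gene IDs. Of the 201 left out, 80 had no count in any library and 121 had counts but lay under the minimum. The genes were chosen by this mean level, so that they are expressed is no result. The mean includes the RGFP966 libraries, and Slc22a23 and Slc26a8 had a vehicle mean under 2 CPM and entered through their RGFP966 level. Of the 176, 4 encode no transporter (a scaffold, an adaptor, an opposite-strand gene and a pseudogene). Just outside the threshold stood Slc23a1 at 1.58 CPM, Slc24a4 at 1.73 CPM and Slc16a5 at 1.93 CPM. Just inside stood Slc26a8 at 2.31 CPM, Slc22a21 at 2.32 CPM and Slc47a2 at 2.59 CPM.

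The libraries were made from the mouse T-cell lymphoma line EL4, whose genotype the labels give as WT. Cells of 3 samples had been given vehicle and those of 3 others 10 µM RGFP966, both for 24 h, in the same medium. RGFP966 is an inhibitor of the histone deacetylase HDAC3, an enzyme that works with the NCoR and SMRT corepressors. The labels do not say whether the 3 samples of a group were separate cultures, so the p-values measure the spread between these samples, which may be technical, and the results describe 1 cell line.

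Library totals ran from 12935443 to 16451017 counts, and every RGFP966 library was smaller than every vehicle library. The scaling factors ran from 0.993 to 1.01. The extraction text speaks of retinas, so markers were checked. Of 14 T cell markers, 13 were above 1 CPM, with a summed level of 2877 to 2901 CPM with vehicle and 2982 to 3046 CPM with RGFP966, while Trbc1 lay at 0.111 CPM. Of 11 retina markers, 2 (Pde6b and Sag) were above 1 CPM, Crx and Gnat1 had no count, and the sum was 4.84 to 5.24 CPM with vehicle and 5.07 to 5.63 CPM with RGFP966. The endothelial list (Pecam1 and Tek above 1 CPM of 5, Kdr at 0) summed to 53.8 to 56.5 CPM with vehicle and 66.0 to 68.9 CPM with RGFP966. The fibroblast list (Pdgfra above 1 CPM of 6, Col3a1 at 0) summed to 44.3 to 45.5 and 54.8 to 57.4 CPM. The B cell, myeloid, erythroid and epithelial lists summed to at most 2.75, 13.8, 1.16 and 1.81 CPM in any library. The part of these shifts in the results below was not tested.

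Some solute carriers let a solute run down its own gradient, and others couple it to the gradient of sodium, protons or another solute. In proliferating T cells the best-known members bring in glucose and amino acids, export lactate, and exchange nucleotides and phosphate across the inner mitochondrial membrane. Levels of different genes are compared below only as CPM per kilobase of exonic sequence. By that measure Slc25a5, which encodes the ADP/ATP carrier ANT2 of the inner mitochondrial membrane, stood first at 557 CPM per kilobase. Slc2a3 (the glucose transporter GLUT3) followed at 229.9 CPM per kilobase. Slc25a3 (the mitochondrial phosphate carrier), Slc39a6 (the zinc importer ZIP6) and Slc25a4 (the ADP/ATP carrier ANT1) lay close together at 202, 202 and 200.5 CPM per kilobase. Next came Slc1a5 (84.2), Slc7a5 (82.5), Slc6a13 (81.8), Slc16a1 (76.8) and Slc3a2 (65.0 CPM per kilobase). The first 4 of these carry glutamine, large neutral amino acids, GABA with related compounds, and lactate, and Slc3a2 encodes the heavy chain that partners Slc7a5.

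All 176 genes passed the filter on low counts. After RGFP966, 46 of them changed (26.1%) at an adjusted p under 0.05 in edgeR's quasi-likelihood test, beside 23.3% of the 13484 genes tested and 26.8% of the tested genes at 2 CPM or more. A share this near the background is no result about solute carriers as a class. The called genes were all among the 172 that encode a transporter. By direction, 30 rose (17%) and 16 fell (9.09%). Over all genes tested 11.4% rose and 11.9% fell, and over those at 2 CPM or more 12.8% rose and 14% fell. The libraries of the groups did not overlap for 64 of the 176 (36.4%), beside 36.3% of all genes tested. That held for 45 of the 46 called genes, the exception being Slc4a7. In bulk RNA, fewer cells with a transcript and less transcript per cell cannot be told apart.

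The changes were small. The median log2 fold change (RGFP966 over vehicle) was 0.02 over the 176 genes and -0.00 over all genes tested. The median was 0.29 among the 30 that rose, a rise of 22.5%, and -0.25 among the 16 that fell, a change of -15.7%. A log2 fold change of at least 0.5 in size was reached by 7 called genes (4 higher, 3 lower), and 1 of them, Slc22a23, passed 2-fold. Since Slc22a23 reached the 2 CPM minimum only through its RGFP966 libraries, its place in these counts and among the 30 that rose is no support for a rise among solute carriers. The summed level of all 176 was 14569 ± 153 CPM (SD, n = 3) in vehicle and 14702 ± 81.5 CPM in RGFP966 libraries. By level, 5 rose and 2 fell of 38 genes at 2 to 10 CPM, 16 and 7 of 77 at 10 to 50 CPM, 5 and 4 of 33 at 50 to 100 CPM, and 4 and 3 of 28 at 100 CPM or more. Over all genes tested in the same bands, the counts were 291 and 69 of 2290, 534 and 494 of 4160, 264 and 441 of 2248, and 354 and 583 of 2621. Of the called genes, 15 of the 30 higher and 7 of the 16 lower kept their call under each of the alternatives that could be run for them (at most 14).

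**Figure D1:**
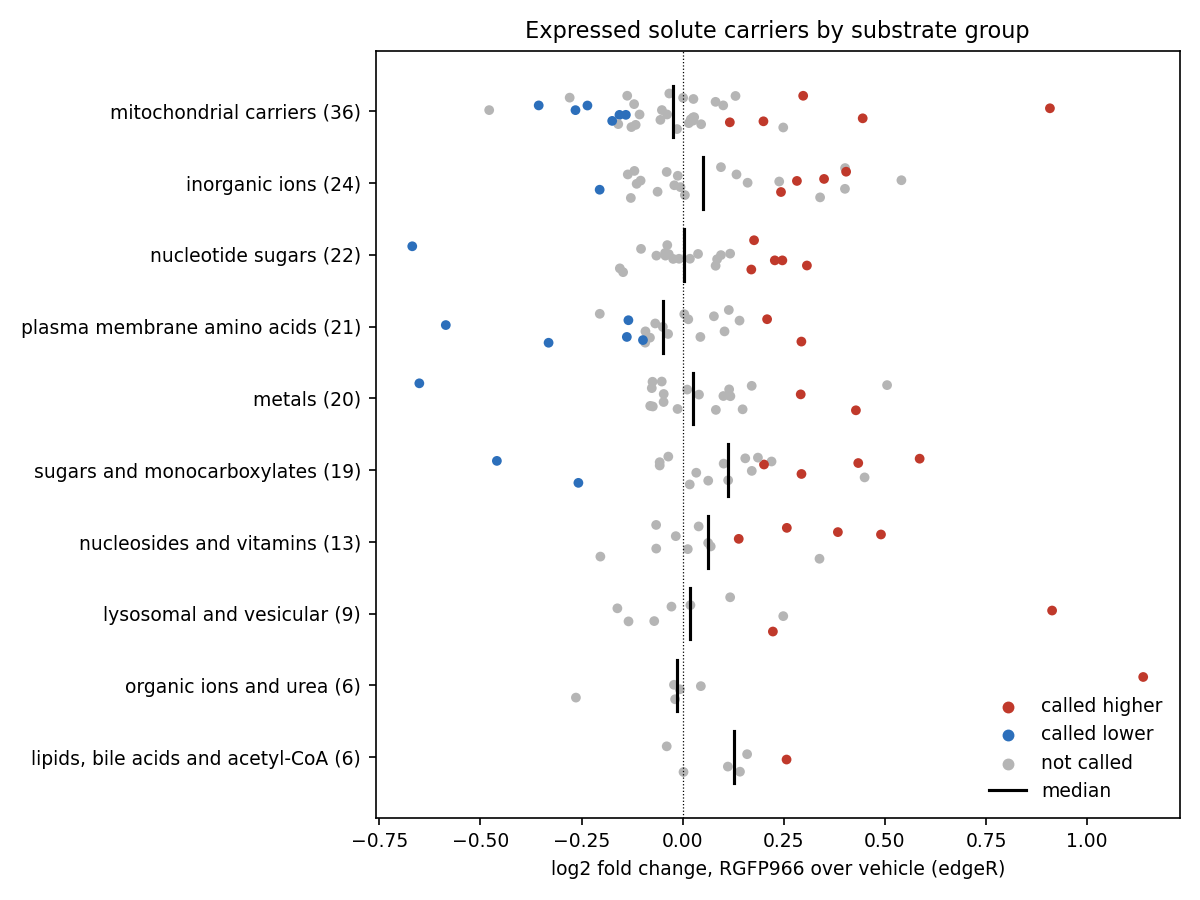
Log2 fold change (RGFP966 over vehicle, edgeR) of each of the 176 genes, 1 point per gene, by substrate group with the number of genes in parentheses; red points rose, blue points fell, grey points were not called, and the black bar is the group's median. The medians lie between -0.05 (plasma membrane amino acids) and 0.13 (lipids, bile acids and acetyl-CoA).

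**Figure D2:**
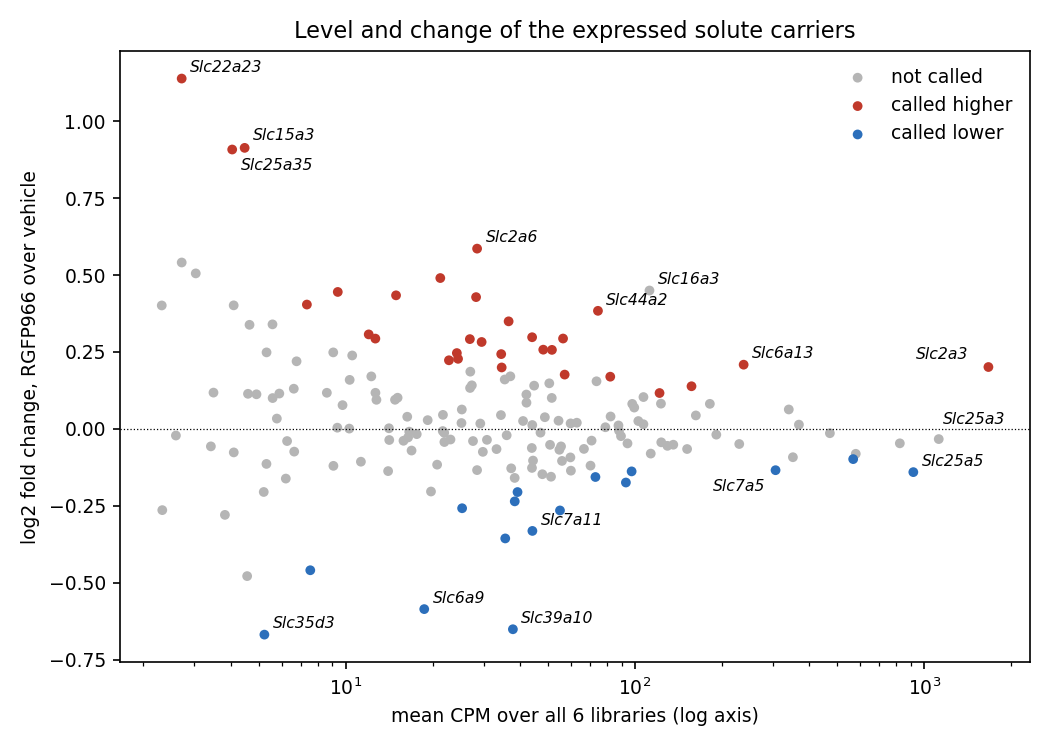
Mean CPM over all 6 libraries (log axis) against the log2 fold change for the same 176 genes, 1 point per gene, red higher, blue lower, grey not called. The highest points are low-level genes such as Slc22a23, while Slc2a3 and Slc25a5 combine a high level with a small change.

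The 7 called genes with the largest changes belonged to 7 different substrate groups. Slc22a23, an orphan member of the organic ion transporter family, lay at 1.83, 1.59 and 1.66 CPM with vehicle and 3.53, 3.57 and 4.09 CPM with RGFP966 (log2 fold change 1.14 ± 0.24 SE, adjusted p = 2.80e-04). Each RGFP966 library was above each vehicle library, though the vehicle mean was under the 2 CPM of the entry rule. Slc15a3, a peptide and histidine transporter of lysosomes, went from 4.17, 2.45 and 2.69 CPM to 6.76, 5.82 and 4.96 CPM (0.91 ± 0.20 SE, adjusted p = 4.58e-04). Slc25a35, a mitochondrial carrier of unknown substrate, went from 3.33, 1.96 and 3.20 CPM to 5.14, 4.65 and 6.03 CPM (0.91 ± 0.21 SE, adjusted p = 7.79e-04). These 3 genes had the lowest levels among those that rose, and no library of one group reached the other.

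Slc2a6, which encodes the intracellular sugar transporter GLUT6, rose from 21.5, 23.6 and 23.2 CPM to 35.0, 33.8 and 33.7 CPM (0.59 ± 0.08 SE, adjusted p = 4.38e-08). Its groups were separated by more than the range within either. Slc39a10, the zinc importer ZIP10, had the smallest adjusted p of the 176 genes. It fell from 50.02, 43.0 and 45.8 CPM to 27.3, 28.5 and 32.3 CPM (-0.65 ± 0.07 SE, adjusted p = 6.37e-10). Slc6a9, the glycine transporter GlyT1, fell from 21.1, 21.4 and 24.8 CPM to 16.1, 14.9 and 13.9 CPM (-0.59 ± 0.10 SE, adjusted p = 5.12e-06). Slc35d3, an orphan of the nucleotide sugar transporter family, fell from 6.78, 7.53 and 4.99 CPM to 3.82, 3.80 and 4.49 CPM (-0.67 ± 0.18 SE, adjusted p = 3.73e-03). Its vehicle libraries spread more widely than its RGFP966 libraries, and the lowest of them lay just above the highest RGFP966 library. All 7 kept their call under every alternative that could be run.

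**Figure D3:**
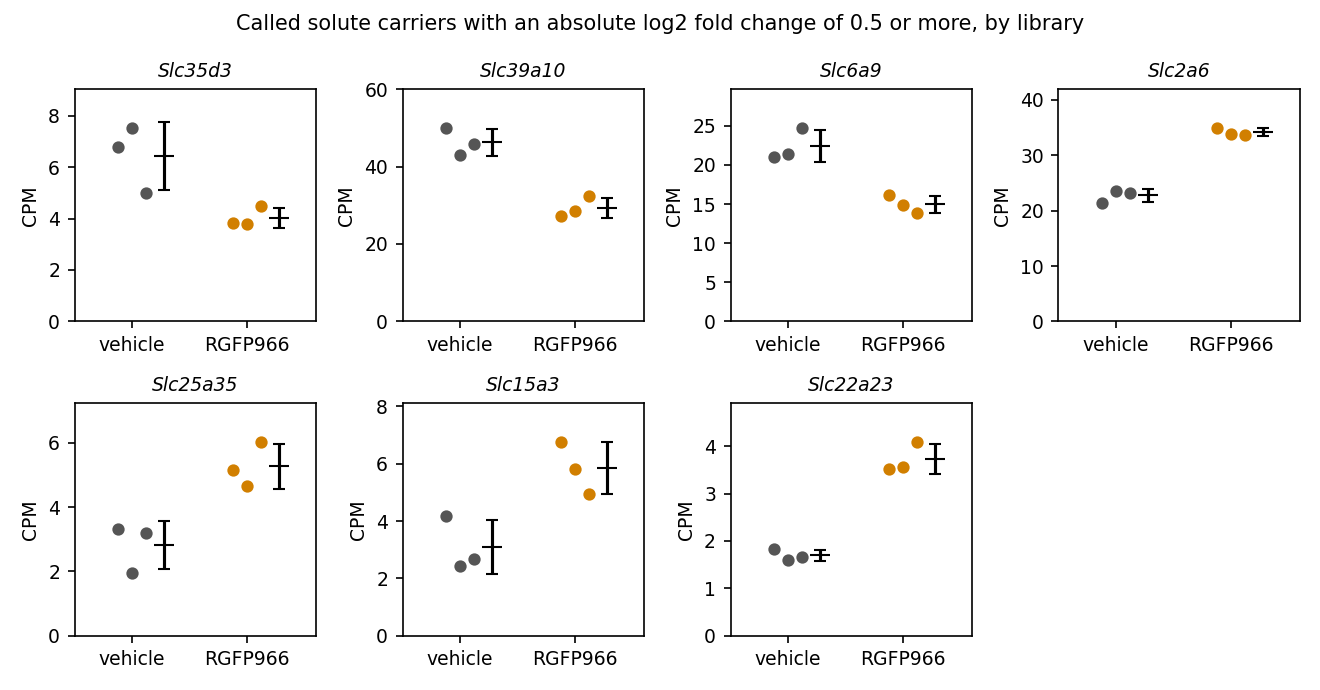
CPM per library of the 7 called genes with an absolute log2 fold change of at least 0.5 (grey vehicle, orange RGFP966, 3 libraries each; bars are mean ± SD, axes start at 0). In each panel the groups do not overlap.

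Sugar and monocarboxylate carriers supply glucose and move lactate and pyruvate. Of 19 genes in this group 4 rose and 2 fell (31.6% called, beside 23.3% of all genes tested). The shares of this and the following groups were not tested against that background. Of the tested genes at 2 CPM or more, the level required of the solute carriers, 26.8% were called. Over all genes tested the share called rose with level. It was 15.7% at 2 to 10 CPM, 24.7% at 10 to 50, 31.4% at 50 to 100 and 35.7% at 100 CPM or more. The group's median log2 fold change was 0.11. The summed level of the group was 2443, 2321 and 2379.9 CPM with vehicle and 2676, 2695 and 2723 CPM with RGFP966. Most of that difference was Slc2a3, the group's most abundant gene. It rose from 1559.8, 1512 and 1578 CPM to 1769, 1797 and 1778.5 CPM (0.20 ± 0.03 SE, adjusted p = 8.87e-06). The gene lies on the minus strand at chr6:122727809-122801640 (GRCm38, the assembly of mm10). Per kilobase, Slc2a3 made up 87.5% of the 5 expressed Slc2a glucose transporter genes in vehicle and 87.3% in RGFP966 libraries. Slc2a6 made up 2.90% and 3.78%.

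Another glucose transporter, Slc2a1 (GLUT1), was not called. It lay at 86.3, 64.1 and 59.0 CPM with vehicle and 73.1, 70.3 and 88.9 CPM with RGFP966 (0.15 ± 0.19 SE, adjusted p = 0.659). Slc16a3, the lactate exporter MCT4, lay at 114, 89.9 and 80.7 CPM and 125, 123 and 141 CPM (0.45 ± 0.16 SE, adjusted p = 0.131). It was not called although its groups did not overlap. These genes had the widest spread among vehicle libraries of the 61 solute carriers at 50 CPM or more, with a coefficient of variation of 20.8% for Slc2a1 and 18.3% for Slc16a3 against a median of 3.55%. Both were highest in vehicle library 1 and in RGFP966 library 3. Without vehicle library 1 both were called higher, Slc16a3 at 0.61 (adjusted p = 2.51e-12) and Slc2a1 at 0.34 (adjusted p = 4.43e-03). DESeq2's Wald test also called Slc16a3, at an adjusted p of 0.0351.

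The main monocarboxylate transporter, Slc16a1 (MCT1), lay at 333 ± 11.4 CPM with vehicle and 348 ± 7.34 CPM with RGFP966 (0.06 ± 0.04 SE, adjusted p = 0.241). Of the 7 expressed Slc16a genes edgeR called 0, 1 had an unadjusted p under 0.05, and DESeq2 called 1 and limma-voom 0. Slc45a4, of a family of proton-coupled sugar transporters, rose from 51.3, 51.9 and 48.9 CPM to 65.8, 56.8 and 63.6 CPM (0.29 ± 0.06 SE, adjusted p = 1.44e-04). Slc5a9, a sodium-coupled sugar transporter, rose from 12.7 ± 0.924 to 17.1 ± 2.19 CPM (0.43 ± 0.11 SE, adjusted p = 2.02e-03). Those of the group that fell were Slc2a9 and Slc5a3. Slc2a9, the urate transporter GLUT9, fell from 9.39, 8.69 and 8.12 CPM to 6.17, 6.51 and 6.37 CPM (-0.46 ± 0.14 SE, adjusted p = 0.0144). Slc5a3, the sodium-coupled myo-inositol transporter, fell from 28.9, 27.7 and 26.0 CPM to 19.99, 23.5 and 25.5 CPM (-0.26 ± 0.08 SE, adjusted p = 0.0208). Slc2a9 lost its call without vehicle library 1 (adjusted p = 0.0715), Slc5a9 without RGFP966 library 3 (0.0501), and Slc5a3 without vehicle library 1 (0.0942) or RGFP966 library 1 (log2 fold change -0.17, adjusted p = 0.214). DESeq2's Wald test called neither Slc2a9 (0.0727) nor Slc5a3 (0.098, both adjusted p). Slc50a1, a sugar transporter of the SWEET family, was not called (0.17, adjusted p = 0.068) but was without RGFP966 library 1 (0.22, adjusted p = 0.0432).

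**Figure D4:**
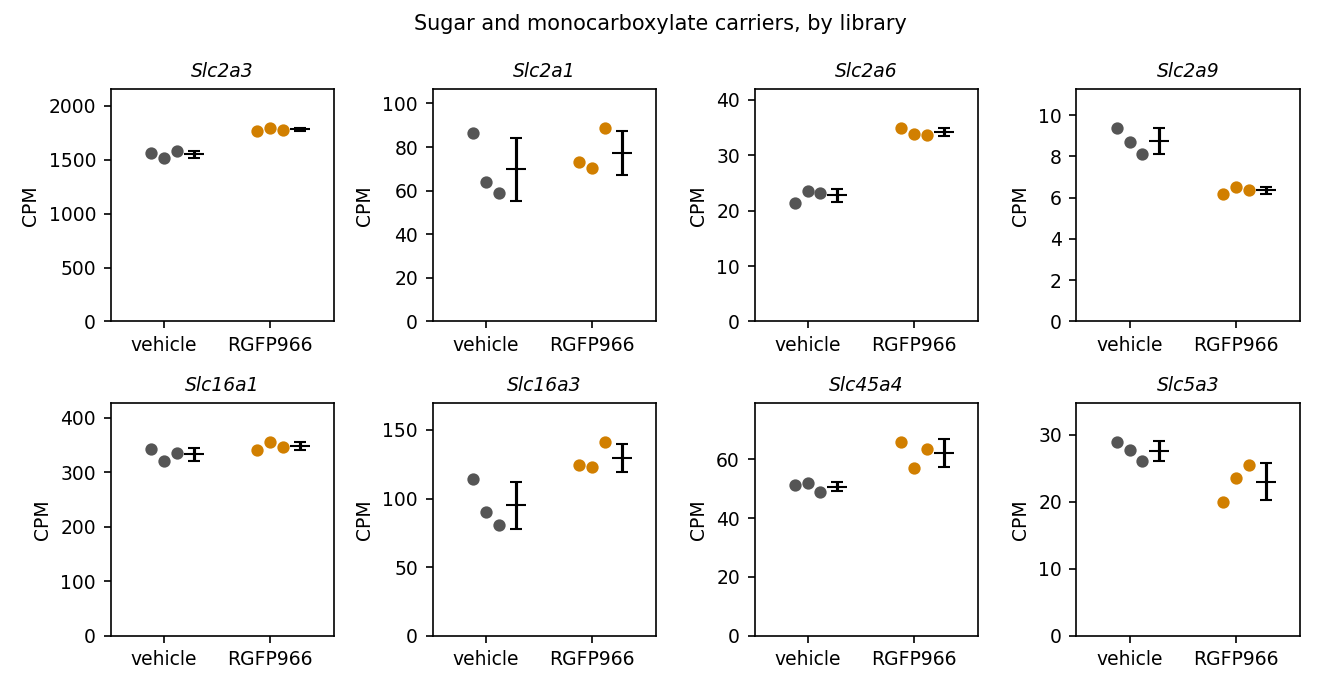
CPM per library of 8 sugar and monocarboxylate carriers (grey vehicle, orange RGFP966, 3 libraries each; bars are mean ± SD, axes start at 0). Slc2a3 and Slc2a6 are higher in every RGFP966 library, whereas the vehicle libraries of Slc2a1 run from 59.0 to 86.3 CPM and overlap the other group.

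Plasma membrane amino acid carriers import glutamine, leucine, arginine, glycine and cystine. Of 21 genes here 2 rose and 5 fell (33.3% called, beside 23.3% of all genes tested), with a median log2 fold change of -0.05. The group's median level was 59.8 CPM, and of all genes tested at 50 to 100 CPM 31.4% were called. Slc7a5, the light chain LAT1 of the large neutral amino acid transporter, fell from 313, 305 and 343 CPM to 294, 291 and 291 CPM (-0.13 ± 0.04 SE, adjusted p = 9.41e-03). Its heavy chain partner Slc3a2 (CD98) lay at 222, 240.3 and 237 CPM and 229, 223 and 224 CPM (-0.05 ± 0.04 SE, adjusted p = 0.414), with overlapping groups. Vehicle library 3 was the highest of the 6 for Slc7a5, and without it the change was -0.08 (adjusted p = 0.204). The call was also lost without RGFP966 library 3 (adjusted p = 0.0546).

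Slc38a2, Slc1a5 and Slc38a1, which carry glutamine and other neutral amino acids, each differed by 0.10 log2 units or less. Slc38a2 (SNAT2) fell from 598, 588 and 575 CPM to 555, 544.5 and 546 CPM (-0.10 ± 0.04 SE, adjusted p = 0.0359), a call that held in 4 of 14 alternatives. It was lost without vehicle library 1 (0.176), vehicle library 3 (0.0507), RGFP966 library 1 (0.0814), RGFP966 library 2 (0.102) or RGFP966 library 3 (0.136, all adjusted p). Slc1a5, the glutamine exchanger ASCT2, lay at 359.7, 366 and 362 CPM with vehicle and 339, 341 and 340.0 CPM with RGFP966 (-0.09 ± 0.04 SE, adjusted p = 0.0582). It was not called although its groups did not overlap. Slc38a1 (SNAT1) lay at 596 ± 18.0 and 563 ± 6.54 CPM (-0.08 ± 0.04 SE, adjusted p = 0.0964), with 0.0483 without vehicle library 2. The arginine transporter Slc7a1 lay at 367 ± 19.6 and 370.4 ± 9.13 CPM (0.01 ± 0.04 SE, adjusted p = 0.843). Slc38a10, an orphan of the same family as Slc38a2, fell from 102 ± 0.913 to 92.6 ± 5.24 CPM (-0.14 ± 0.05 SE, adjusted p = 0.0281). It lost its call without vehicle library 1 (0.0852), vehicle library 3 (0.0736), RGFP966 library 1 (0.0522) or RGFP966 library 2 (0.217, all adjusted p).

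The amino acid carriers that rose were Slc6a13 and Slc36a4. Slc6a13, the GABA and taurine transporter GAT2, rose from 221, 223 and 217 CPM to 255, 249.8 and 258 CPM (0.21 ± 0.04 SE, adjusted p = 3.55e-05). The groups lay farther apart than the libraries within either group. Slc36a4, a proline and tryptophan transporter, rose from 11.4 ± 0.473 to 13.9 ± 1.00 CPM (0.29 ± 0.11 SE, adjusted p = 0.0489). Its call was lost without any 1 of 5 libraries (adjusted p from 0.07 to 0.155) and kept without RGFP966 library 1. Slc7a6 (0.10, adjusted p = 0.0958) was called without vehicle library 3 (0.14, adjusted p = 0.0478).

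Slc7a11 encodes xCT, the light chain of the cystine/glutamate exchanger that supplies cysteine for glutathione. It fell from 47.8, 47.2 and 52.9 CPM to 42.0, 33.6 and 41.6 CPM (-0.33 ± 0.07 SE, adjusted p = 4.04e-04). RGFP966 library 2 was the lowest, and the groups did not overlap. The call held in 14 of 14 alternatives. The gene is known to be induced through amino acid response elements, the sites to which the stress factor ATF4 binds, so the RefSeq promoter windows (250 bases before to 50 after each annotated start, build GRCm38.p6) were searched for the letters TGATGNAA on both strands. Windows were found for 138 of the 176 genes. Of those, 5 (3.62%) held the letters in at least 1 window, beside 4.51% of 27025 genes in the table, expressed here or not. Those 5 were Slc7a11, Slc7a7, Slc1a4, Slc9a9 and Slc50a1. In the amino acid group the letters were found in 3 of 17 genes with a window, and in 1 of 4 that fell. The 250 bases before the start are shown for the gene with matches that fell and for Slc7a7, a cationic amino acid exchanger of the same family with matches that was not called, with the matching letters in capitals.
Slc7a11 (chr3:50443614-50443863, minus strand): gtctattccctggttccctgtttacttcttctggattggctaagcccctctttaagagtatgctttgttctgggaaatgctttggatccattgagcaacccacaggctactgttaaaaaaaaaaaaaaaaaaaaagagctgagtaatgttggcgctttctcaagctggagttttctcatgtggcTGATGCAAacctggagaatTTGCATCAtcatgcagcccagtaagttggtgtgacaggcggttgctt
Slc7a7 (chr14:54417945-54418194, minus strand): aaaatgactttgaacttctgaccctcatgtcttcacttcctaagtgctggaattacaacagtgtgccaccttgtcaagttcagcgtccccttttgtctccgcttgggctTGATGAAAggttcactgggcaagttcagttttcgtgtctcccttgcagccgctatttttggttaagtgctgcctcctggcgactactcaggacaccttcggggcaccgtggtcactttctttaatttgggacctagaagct

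In Slc7a11 the matches begin 66 and 47 bases before the start, the first on the gene's strand and the second on the other. In the 250 bases shown for Slc7a7, 1 match begins 141 bases before the start. A second match in its window, TGATGCAA, begins 1 base before the start and runs past the bases shown. Slc7a7 was not called (log2 fold change 0.14, adjusted p = 0.0960). Slc1a4, another neutral amino acid exchanger with a match, differed by -0.09 (adjusted p = 0.326). Of the 5 genes with the letters, 1 fell and 4 were not called. In the same windows the E-box letters CACGTG were found in 16.7% of the solute carriers and 8.09% of all genes. Those of the metal response element (taken here as TGCGCNC) were found in 29% and 17%, and those of the antioxidant response element (TGACNNNGC) in 23.2% and 14%. All genes here means the 27025 of the promoter table, whether expressed in these libraries or not. The solute carriers were chosen as expressed, so these shares are no contrast with other expressed genes. Among the solute carriers that rose, fell or were not called, the E-box was found in 15.8%, 7.14% and 18.1% of genes with a window. The metal response element was found in 26.3%, 14.3% and 31.4%, and the antioxidant response element in 26.3%, 35.7% and 21%. These shares rest on 19, 14 and 105 genes with a window. A match of letters is a description and not a bound site.

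**Figure D5:**
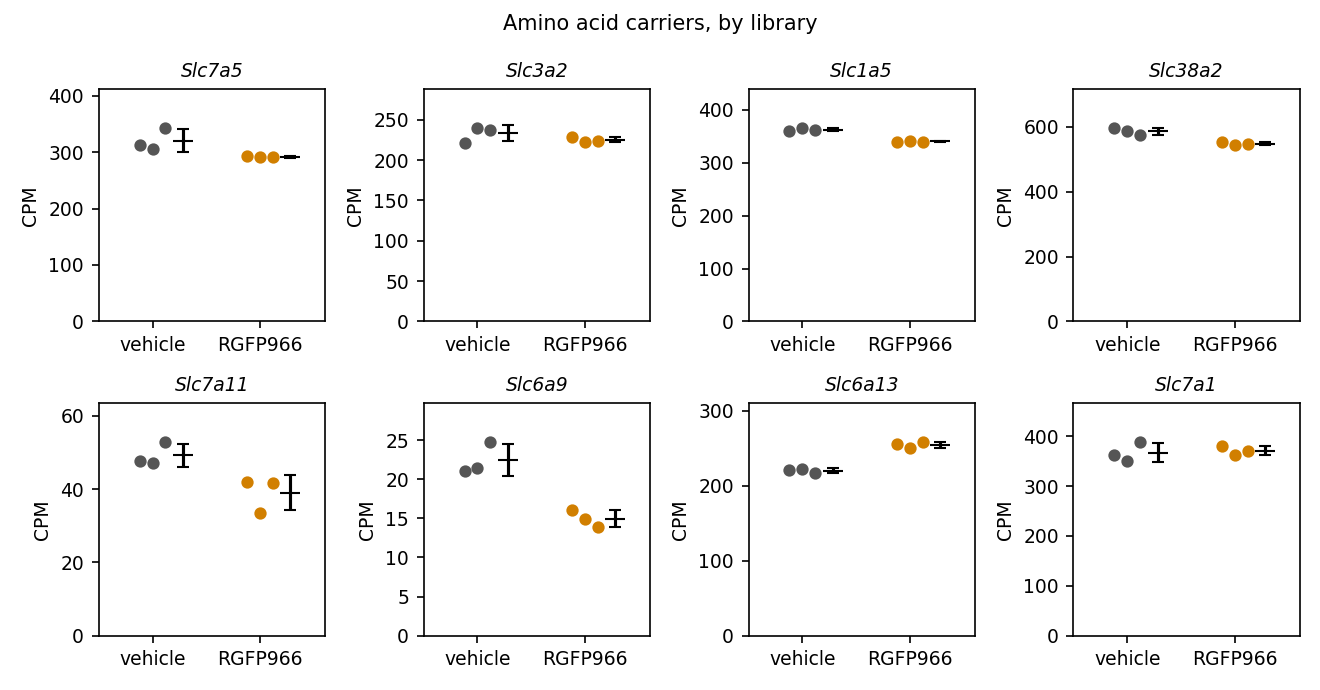
CPM per library of 8 amino acid carriers (grey vehicle, orange RGFP966, 3 libraries each; bars are mean ± SD, axes start at 0). Slc6a9 and Slc7a11 are lower and Slc6a13 is higher in every RGFP966 library, while Slc3a2 and Slc7a1 overlap between the groups.

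Mitochondrial carriers exchange metabolites, nucleotides, phosphate and ions across the inner mitochondrial membrane. With 36 genes they were the largest group, in which 5 rose and 6 fell (30.6% called, beside 23.3% of all genes tested). The group's median log2 fold change was -0.02. The summed level was 4056 ± 46.7 CPM (SD, n = 3) in vehicle and 3911 ± 31.5 CPM in RGFP966 libraries. Slc25a5 (ANT2) fell from 921, 1014 and 947 CPM to 869, 894 and 852 CPM (-0.14 ± 0.04 SE, adjusted p = 3.06e-03). Its share of the Slc25a family per kilobase was 43.1% ± 1.15 (SD, n = 3) in vehicle and 41.2% ± 0.410 in RGFP966 libraries. Its close relative Slc25a4 (ANT1) lay at 474 ± 16.8 and 469 ± 8.61 CPM (-0.01 ± 0.04 SE, adjusted p = 0.832). The phosphate carrier Slc25a3 lay at 1135 ± 31.6 and 1109 ± 13.4 CPM (-0.03 ± 0.03 SE, adjusted p = 0.547).

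Among the others that fell, Slc25a28 (mitoferrin-2, which brings iron into mitochondria) went from 39.5, 43.9 and 36.6 CPM to 29.1, 29.9 and 34.6 CPM (-0.36 ± 0.07 SE, adjusted p = 2.83e-04). The other mitoferrin gene, Slc25a37, differed by 0.08 and was not called (adjusted p = 0.23). Slc25a22, a glutamate carrier, fell from 61.7, 58.0 and 60.6 CPM to 52.2, 47.8 and 49.99 CPM (-0.27 ± 0.06 SE, adjusted p = 4.38e-04). Slc25a10 (the dicarboxylate carrier, -0.24), Slc25a46 (an outer membrane protein that acts in mitochondrial dynamics, -0.17) and Slc25a1 (the citrate carrier, -0.16) fell at adjusted p of 7.28e-03, 6.47e-03 and 0.0230. Without RGFP966 library 3 the calls of Slc25a10 (0.104), Slc25a46 (0.109) and Slc25a1 (0.114) were lost. That of Slc25a1 was also lost without vehicle library 1 (0.145), vehicle library 2 (0.0635) or RGFP966 library 1 (0.0881, all adjusted p).

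Of the mitochondrial genes that rose, Slc25a35 is given above. Slc25a23, a calcium-regulated ATP-Mg/phosphate carrier, rose from 40.4, 39.2 and 39.0 CPM to 48.9, 49.9 and 47.1 CPM (0.30 ± 0.06 SE, adjusted p = 2.56e-04). Slc8b1, the mitochondrial sodium/calcium exchanger NCLX, rose from 7.56, 8.02 and 8.25 CPM to 9.55, 12.02 and 10.9 CPM (0.45 ± 0.13 SE, adjusted p = 8.58e-03). Slc25a12, the calcium-regulated aspartate/glutamate carrier aralar, rose from 117 ± 3.60 to 126 ± 2.47 CPM (0.12 ± 0.04 SE, adjusted p = 0.0466). Slc25a20, the carnitine/acylcarnitine carrier of fatty acid oxidation, rose from 32.2 ± 1.33 to 37.0 ± 2.17 CPM (0.20 ± 0.07 SE, adjusted p = 0.0322). The calls of the last 3 genes were lost without single libraries. For Slc8b1 that was RGFP966 library 2 (adjusted p = 0.0653). For Slc25a12 it was vehicle library 2 (0.0551), vehicle library 3 (0.158), RGFP966 library 1 (0.176) or RGFP966 library 2 (0.101), and for Slc25a20 vehicle library 2 (0.131) or RGFP966 library 2 (0.181).

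Metal carriers bring zinc, iron and copper into the cytosol (Slc39, Slc11 and Slc31), take zinc and manganese out of it (Slc30) or move magnesium (Slc41). Of 20 genes 2 rose and 1 fell (15% called, beside 23.3% of all genes tested). Slc39a10 fell while Slc39a14, the importer ZIP14 for zinc and iron, rose from 22.6, 23.9 and 25.7 CPM to 29.1, 33.7 and 34.3 CPM (0.43 ± 0.08 SE, adjusted p = 4.76e-05). Neither gene's groups overlapped. Per kilobase, the share of Slc39a10 among the 8 expressed Slc39a genes was 2.91% in vehicle and 1.90% in RGFP966 libraries, and that of Slc39a14 was 0.875% and 1.21%. Slc39a6, the most abundant of them with 78.7% and 78.3%, lay at 842, 825 and 842 CPM and 815, 805 and 809 CPM (-0.05 ± 0.03 SE, adjusted p = 0.361). It was not called although its groups did not overlap. Slc30a6, a zinc transporter of the Golgi, rose from 23.5, 24.7 and 24.3 CPM to 30.2, 29.3 and 29.2 CPM (0.29 ± 0.08 SE, adjusted p = 3.71e-03). Slc11a2, the iron transporter DMT1, lay at 116.5 ± 2.94 and 110.1 ± 5.24 CPM (-0.08 ± 0.05 SE, adjusted p = 0.217). The calls of Slc39a10, Slc39a14 and Slc30a6 held in all 14 alternatives.

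Carriers of nucleosides, vitamins and choline took up 13 genes, of which 4 rose and 0 fell (30.8% called, beside 23.3% of all genes tested). In the falling direction 1 had an unadjusted p under 0.05 in edgeR, and DESeq2 and limma-voom each called 0. Slc44a2, a choline transporter, rose from 67.4, 61.9 and 64.7 CPM to 83.5, 81.1 and 88.2 CPM (0.38 ± 0.05 SE, adjusted p = 9.35e-08). Slc46a3, a lysosomal membrane transporter related to the folate carrier, rose from 16.96, 17.9 and 18.0 CPM to 26.7, 24.7 and 23.1 CPM (0.49 ± 0.09 SE, adjusted p = 2.67e-05). For both genes the groups lay farther apart than the libraries within either group. Slc28a2, the sodium-coupled nucleoside transporter CNT2, rose from 43.7, 40.3 and 47.8 CPM to 52.9, 50.9 and 53.5 CPM (0.26 ± 0.06 SE, adjusted p = 1.71e-03). Slc29a1, the equilibrative nucleoside transporter ENT1, rose from 145, 148 and 154 CPM to 169, 159.7 and 164 CPM (0.14 ± 0.04 SE, adjusted p = 0.0110). Its call was lost without vehicle library 1 (adjusted p = 0.0656) or RGFP966 library 1 (0.0917). Slc19a1, the reduced folate carrier, lay at 34.0 ± 1.05 and 32.5 ± 1.86 CPM (-0.07 ± 0.07 SE, adjusted p = 0.564). Slc23a2, a vitamin C transporter, was not called (-0.07, adjusted p = 0.322) but was without vehicle library 2 (-0.12, adjusted p = 0.0296).

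Inorganic ion carriers move bicarbonate, sulfate, chloride, phosphate and protons. Of 24 genes in this group 4 rose and 1 fell (20.8% called, beside 23.3% of all genes tested). Slc4a8, a sodium-driven chloride/bicarbonate exchanger, rose from 34.6, 31.1 and 30.9 CPM to 40.1, 37.9 and 44.8 CPM (0.35 ± 0.07 SE, adjusted p = 1.89e-04). Slc4a7, a sodium bicarbonate cotransporter, fell from 41.2, 42.4 and 42.5 CPM to 32.3, 41.3 and 35.99 CPM (-0.21 ± 0.07 SE, adjusted p = 0.0280). RGFP966 library 2 lay within its vehicle range, while the other RGFP966 libraries lay below it. Slc26a2 and Slc26a11, both sulfate transporters, rose by 0.24 ± 0.07 and 0.40 ± 0.15 SE (adjusted p = 0.0116 and 0.0399). Among the Slc12a cotransporters, genes that were not called had log2 fold changes of 0.09 (Slc12a9), 0.13 (Slc12a7), 0.24 (Slc12a4) and 0.40 (Slc12a5).

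Several of the ion carrier calls were lost when 1 library was left out, which also leaves the test fewer libraries. In those fits the changes kept their sign. Slc26a11 stood at 0.41 without RGFP966 library 1 and 0.31 without vehicle library 2, and Slc4a7 at -0.20 without vehicle library 2. Slc4a7 lost its call without RGFP966 library 1 (-0.13, adjusted p = 0.272), RGFP966 library 3 (0.11), vehicle library 2 (0.0627) or vehicle library 3 (0.0872). Slc26a2 lost it without RGFP966 library 2 (0.0658), RGFP966 library 3 (0.0747) or vehicle library 3 (0.0951), and Slc26a11 without RGFP966 library 1 (0.0787), RGFP966 library 2 (0.175) or vehicle library 2 (0.182, all adjusted p). Of 5 expressed sodium/proton exchanger genes (Slc9a), edgeR called 0, 1 had an unadjusted p under 0.05, and DESeq2 and limma-voom called 0. Slc9a9 was called without vehicle library 2 (0.21, adjusted p = 0.0462). The phosphate transporter Slc20a1 differed by -0.12 ± 0.05 SE (adjusted p = 0.0969) and the anion exchanger Slc4a2 by -0.10 ± 0.06 SE (adjusted p = 0.218). Slc20a2 was not called with all 6 libraries (-0.14, adjusted p = 0.0761). It was called lower without vehicle library 2 (-0.17, adjusted p = 0.0381) or RGFP966 library 3 (-0.18, adjusted p = 0.0438). The iodide transporter Slc5a5, at a mean of 2.71 CPM over all libraries, was not called with all 6 libraries. It was called higher without vehicle library 1 (0.80, adjusted p = 0.0353).

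The Slc35 family supplies the Golgi and the endoplasmic reticulum with nucleotide sugars for glycosylation, although several of its subfamilies have no settled substrate. Of its 22 genes 5 rose and 1 fell (27.3% called, beside 23.3% of all genes tested). Those that rose were Slc35d2, of a nucleotide sugar transporter subfamily, and 4 genes of subfamilies e, f and g, and the one that fell was Slc35d3. Among the 11 expressed genes of subfamilies a, b and c, which carry CMP-sialic acid, UDP-galactose, GDP-fucose and the sulfate donor PAPS among others, edgeR called 0. In those 11, 2 had an unadjusted p under 0.05, both in the falling direction, and DESeq2 called 0 and limma-voom 1. Among the 11 of subfamilies d to g, 5 rose and 1 fell in edgeR, with 1 and 1 in DESeq2 and 5 and 1 in limma-voom. The difference between these subfamilies was not tested. Slc35g1 rose from 79.0, 73.6 and 79.4 CPM to 85.3, 88.2 and 87.3 CPM (0.17 ± 0.05 SE, adjusted p = 8.36e-03). Slc35e3 (0.18 ± 0.06 SE), Slc35f5 (0.25 ± 0.08 SE), Slc35f2 (0.23 ± 0.08 SE) and Slc35d2 (0.31 ± 0.11 SE) rose at adjusted p of 0.0207, 0.0235, 0.0339 and 0.0417.

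All 5 of these rises were lost without at least 1 library. Slc35g1 lost its call without vehicle library 2 (adjusted p = 0.0567). Slc35e3 lost it without vehicle library 2 (0.0517), vehicle library 3 (0.0584) or RGFP966 library 1 (0.214), and Slc35f5 without vehicle library 2 (0.13), RGFP966 library 2 (0.0784) or RGFP966 library 3 (0.0502). Slc35f2 kept it without RGFP966 library 2 and lost it without any 1 of the others (0.0555 to 0.123), and Slc35d2 kept it without vehicle library 2 and lost it otherwise (0.0649 to 0.139, all adjusted p). The fall of Slc35d3 was called in all 14 alternatives.

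The remaining groups were small. Among 9 lysosomal and vesicular genes 2 rose and 0 fell, among 6 of organic ions and urea 1 rose and 0 fell, and among 6 of lipids, bile acids and acetyl-CoA 1 rose and 0 fell. The rise among organic ions and urea was that of Slc22a23. It met the 2 CPM minimum only through its RGFP966 libraries, so it is no support for a rise in that group. The called shares were 22.2%, 16.7% and 16.7%, beside 23.3% of all genes tested. In the falling direction 0 of these genes had an unadjusted p under 0.05 in edgeR, and DESeq2 and limma-voom called 0. Slc38a9, the lysosomal arginine sensor that acts on mTORC1, rose from 21.1, 20.5 and 21.4 CPM to 24.2, 23.9 and 25.4 CPM (0.22 ± 0.08 SE, adjusted p = 0.0452). Its call was lost without any 1 of the 6 libraries (adjusted p from 0.0615 to 0.142). Slc33a1, the acetyl-CoA transporter of the endoplasmic reticulum, rose from 48.2, 44.3 and 48.7 CPM to 51.6, 57.9 and 59.1 CPM (0.26 ± 0.06 SE, adjusted p = 1.35e-03). This call held in all 14 alternatives.

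Reads could be shared with an overlapping or near-identical gene for 14 of the 176, at 20% or more of exonic length or of 50-base exonic words, and 7 of these were called, 6 of which are named here. The sources used here do not give the strand setting of the counting. The overlap was 32% for Slc33a1 (Gm26850), 31.3% for Slc25a35 (Rangrf), 30.2% for Slc6a9 (Ccdc24) and 28.1% for Slc15a3 (Tmem132a). Shared words made up 35.4% for Slc28a2 (Gm14085) and 33.8% for Slc25a5 (Gm5560). The partners were low: Gm5560 lay at 1.34 CPM with vehicle and 1.04 CPM with RGFP966, Tmem132a at 1.07 and 1.35 CPM (0.32, adjusted p = 0.561), and the other 4 under 0.4 CPM in both groups. Reads of Tmem132a and Slc15a3 cannot be told apart over their overlap.

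Transport proteins outside the symbol rule were counted from lists chosen for their role. Of 23 ATP-binding cassette transporters tested, 4 rose and 3 fell (30.4%), beside the same 23.3% called over all genes. Abcg3 rose from 5.02 ± 1.55 to 9.26 ± 0.783 CPM (0.89 ± 0.17 SE, adjusted p = 6.92e-05), and Abcb8, a mitochondrial member, fell from 91.6 ± 3.62 to 75.4 ± 1.06 CPM (-0.28 ± 0.05 SE, adjusted p = 1.60e-05). Of 30 genes tested in a list of ion pumps and related proteins, 5 rose and 10 fell (50% called, beside 23.3%). The differences between these lists and all genes were not tested, and the 23.3% takes no account of level. Atp1b2, a beta subunit of the sodium pump, rose from 5.48, 4.41 and 5.24 CPM to 9.48, 11.01 and 9.45 CPM (0.98 ± 0.15 SE, adjusted p = 1.07e-06). The RGFP966 libraries all lay above the vehicle libraries.

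Of 15 partner proteins tested, 4 rose and 2 fell (40% called, beside 23.3% of all genes tested). Emb and Bsg, chaperones that bring the lactate transporters to the plasma membrane, were among those that rose. The listed partner Nptn (neuroplastin) was not called (-0.09, adjusted p = 0.131). Emb (embigin) went from 39.3, 43.3 and 37.4 CPM to 58.7, 56.8 and 51.7 CPM (0.48 ± 0.06 SE, adjusted p = 9.35e-08). Bsg (basigin) went from 292, 259 and 267 CPM to 293, 297 and 318 CPM (0.15 ± 0.04 SE, adjusted p = 4.50e-03). Of the kinases that regulate the Slc12a cotransporters, Wnk1 rose by 0.19 ± 0.04 SE (adjusted p = 1.37e-04) and Stk39 (SPAK) fell by 0.19 on the log2 scale (adjusted p = 4.84e-04). Of 41 tested solute carriers that go under other symbols, 9 rose and 7 fell (39% called, beside 23.3% of all genes tested). Sv2a, a synaptic vesicle glycoprotein gene, rose by 0.53 ± 0.10 SE (adjusted p = 3.19e-05), and Mpc2, a subunit of the mitochondrial pyruvate carrier, changed by -0.21 ± 0.07 SE (adjusted p = 0.0169).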

How the data were processed

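RNA sequencing libraries of EL4 cells, 3 with vehicle and 3 with 10 µM RGFP966 for 24 h, were analysed from the deposited table of raw read counts per mouse gene ID. The submitters' processing notes name HTSeq 0.6.0, HISAT2 2.1.0, Bowtie2 2.2.3, TopHat2 and CASAVA as tools, without role or order, and mm10 as the build. For the annotation release and strandedness the sources used here give nothing. Libraries were prepared with a NEBNext Ultra kit per the labels, whose extraction text speaks of retinas.

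Symbols were found for 51633 of 51912 IDs, and exonic lengths and positions came from GENCODE M21. Counts of all 6 libraries were fitted with edgeR 4.0.16 (R 4.3.3): filterByExpr, trimmed mean of M values factors, robust quasi-likelihood F test, group as the only term. P-values were adjusted by Benjamini and Hochberg's method across the 13484 genes tested, and a gene was called under 0.05. The standard error (SE) was taken as the size of the log2 fold change divided by the root of F. Levels are scaled CPM, shown as mean ± SD of 3 libraries where libraries are not listed. Alternatives used DESeq2 1.42.0 and limma 3.58.1, other factors and filters, a replicate block, other level minima and each library left out. The fit was tested on simulated data.

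The solute carriers, substrate groups and lists were chosen with earlier results of these data known. Named genes are called genes of at least 0.5 in size, up to 3 rises and 3 falls of smallest p per group, the 10 highest per kilobase and a set of well-known transporters. Other called genes (Slc5a9, Slc25a10, Slc25a46, Slc25a1, Slc25a12, Slc25a20, Slc26a11, Slc35f2, Slc35d2 and Slc38a10) and the uncalled Slc7a7, Slc1a4, Slc9a9, Slc50a1, Slc25a37, Slc7a6, Slc5a5, Slc20a2, Slc23a2, Slc31a1, Slc22a3, Slc12a4, Slc12a5, Slc12a7 and Slc12a9 were chosen after their values were seen. For some genes, results are not reported here.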

Additional observations from a re-analysis of the deposited data

How the results depend on the processing

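In each alternative more solute carriers were called higher than lower. In the main fit 11.4% of all genes tested were called higher and 11.9% lower. The shares over all genes under the other settings are not given here. The counts below are therefore no result about solute carriers as a class. The number of solute carriers called higher ran from 20 (DESeq2's Wald test) to 34 (upper-quartile factors), against 30, and the number called lower from 11 (DESeq2's Wald test) to 18 (replicate block), against 16. Leaving out each library in turn gave 22 to 29 higher and 11 to 17 lower, and medians from -0.00 to 0.03. The median log2 fold change moved from 0.02 to 0.0397 with upper-quartile factors. A minimum of 1 CPM gave 31 higher and 16 lower, and 5 CPM gave 27 and 16. DESeq2's Wald test lost 16 of the edgeR calls. Lost were Slc2a9 (0.0727), Slc5a3 (0.098), Slc8b1 (0.0518), Slc25a1 (0.0958), Slc25a12 (0.109), Slc25a20 (0.12), Slc26a2 (0.0659) and Slc26a11 (0.143). Also lost were Slc4a7 (0.127), Slc35d2 (0.145), Slc35e3 (0.0878), Slc35f2 (0.124), Slc35f5 (0.0988), Slc36a4 (0.162), Slc38a9 (0.15) and Slc38a10 (0.0924, all adjusted p).

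With the replicate number as a block the counts were 31 and 18. Same-numbered libraries did not deviate together (correlations -0.0182, 0.0132 and 0.00842), so no shared replicate effect was seen. These values cannot show whether the samples were handled in pairs. The block brought Slc1a5 (adjusted p = 0.0440) and Slc50a1 (0.0485) past the threshold.

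Uncalled genes near 0 changed sign. Slc7a1 went to -0.02081 without vehicle replicate 2 and -0.005379 without RGFP966 replicate 1, and Slc31a1 to -0.0002725 without vehicle replicate 2 and -0.00827 without RGFP966 replicate 3. Slc25a4 went to 0.009222 (upper-quartile factors), 0.000356 (library totals), 0.0009441 (minimum of 5 CPM), 0.01137 (without vehicle replicate 2) and 0.008073 (without RGFP966 replicate 3). Slc22a3 went to 0.004627 (upper-quartile factors) and 0.01003 (without vehicle replicate 1). Over the settings that left out a library the log2 fold change ran from -0.02081 to 0.06159 for Slc7a1, from -0.03587 to 0.01137 for Slc25a4, from -0.00827 to 0.03312 for Slc31a1 and from -0.04518 to 0.01003 for Slc22a3. The cause was not tested.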
